A study of Arabidopsis thaliana with 6 samples.

Results

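The genes described here are those whose transcripts were strongly higher both in leaves that had been wounded and in unwounded leaves of wounded plants. In all, 115 of 22746 probe sets were chosen, each a set of array probes that stands for a transcript. They were selected on 3 measured conditions, all on log2 levels: the mean of the local arrays lay at least 2 above the mean of the control arrays, the mean of the systemic arrays lay at least 1.5 above it, and every local and systemic array lay above both control arrays. Another 11 probe sets met these conditions but were left out by name: STZ, ORA47, AT4G29780, AT4G27280, AT1G33760, the adjacent genes AT4G27652, AT4G27654 and AT4G27657, and the genes CML23, WRKY22 and WRKY53. Of the 115, 47 list exactly 1 gene in the platform annotation and are named here, 3 list several genes and 65 are unnamed here. These 65 list no gene, so leaving out by name could not reach them. They may include genes of the CML, PUB and WRKY families, which were otherwise left out. Since measured values chose these probe sets, their differences from control are a description, and no test against control supports anything said of them.

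Transcript levels were measured in rosette leaves of Arabidopsis thaliana, labelled as ecotype Colombia, grown in soil for 5 weeks in days of 10 h light and 14 h dark at 21 °C. The local group was leaves wounded by clamping the midvein with tweezers (3 rosette leaves were wounded), the systemic group was unwounded leaves of wounded plants, and the control group was leaves of plants that had not been wounded. Local and systemic leaves were taken 10 min after wounding, and each of the 2 biological replicates of a group was pooled leaf material of 3 plants on its own Affymetrix array. Values are log2 expression levels made by RMA, so that a difference of 1 is a doubling, and only the spread over 2 pools stands behind each mean.

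A wounded leaf sends signals through the vasculature within minutes. Membrane depolarisation and a wave of cytosolic calcium travel to distant leaves, where glutamate receptor-like channels are needed for them to spread, and jasmonate accumulates soon after. The transcripts that rise within minutes of wounding include many that also rise after touch, cold shock or contact with microbial patterns, among them transcripts of transcription factors, of calcium-binding proteins and of proteins at the plasma membrane and in the cell wall.

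Of 22 markers of leaf cell types that were listed, 6 had a probe set named here, and the sum of their log2 levels was 58.8 and 59.4 on the control, 59.1 and 59.0 on the local and 59.2 and 59.5 on the systemic arrays. This sum joins different cell types and can stay level while single markers move in opposite directions, so it does not show an equal make-up of cells. The phloem gene SWEET11 was called higher and the dividing cell gene AUR1 lower in local leaves, and AUR1 was called lower in systemic leaves too (by limma, -0.89 in local and -0.67 in systemic leaves, adjusted p = 0.00056 and 0.0061). Signal at the 3' end of the ubiquitin control transcript exceeded that at its 5' end, a gap that widens as RNA degrades, by 1.33 and 1.25 on control arrays, by 0.967 and 1.05 on local arrays and by 1.23 and 1.26 on systemic arrays. The part of these markers and of RNA quality in the results was not tested. In leaf pools, more cells that express a gene and more RNA per cell cannot be told apart.

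The median level of the 115 probe sets was 6.49 in control leaves, near the median of all probe sets there (6.27), 8.60 in systemic leaves and 10.2 in local leaves. By rank within an array, their median lay at percentile 52.5 on either control array, at percentiles 84.7 and 76.6 on the systemic arrays and at percentiles 93.0 and 92.9 on the local arrays. Of the 115, 77 and 80 lay in the top 10% of all probe sets on the local arrays, 45 and 26 on the systemic arrays and 6 on each control array. Levels of different probe sets depend on their probes, so these ranks describe the arrays and order no genes. For 2 of them, AT3G48640 and an unnamed probe set, both control values fell into the range under the array's lower quartile, so that their differences from control rest on dim control signals.

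The differences from control ranged from 2.07 to 7.67 in local leaves (median 3.46, against -0.04 over all probe sets) and from 1.502 to 4.46 in systemic leaves (median 2.08, against -0.02). For scale only, limma's adjusted p was under 0.05 for a rise in 9.92% and for a fall in 13.7% of all probe sets in local leaves, and in 4.73% and 3.67% in systemic leaves. The members' own counts, 115 higher in local and 113 in systemic leaves, follow from how they were chosen and are no result. The exceptions in systemic leaves were AT5G05960 and an unnamed probe set, whose 2 systemic arrays lay far apart. Seen per member, the systemic difference was between 29.3% and 89.6% of the local difference on the log2 scale, with a median of 60.1%.

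**Figure D1:**
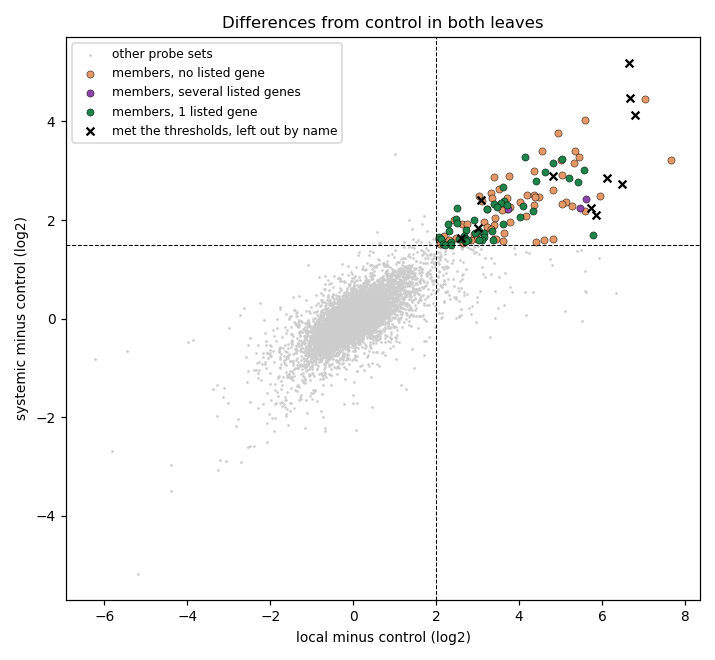
Each point is a probe set, with its mean local minus control difference on the x axis and its mean systemic minus control difference on the y axis, both in log2 units; dashed lines mark the minimum differences of 2 and 1.5 used to choose the 115 members. The members (coloured) reach 7.67 in local leaves, for a probe set with dim control values, and 4.46 in systemic leaves, and crosses are the 11 probe sets left out by name.

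The named genes with the largest systemic differences were of varied kinds. AT3G48650, annotated as a transcribed pseudogene in the gene table, stood at 5.68 and 5.57 on the control arrays, 9.59 and 9.93 on the local arrays and 9.26 and 8.55 on the systemic arrays, a systemic difference of 3.28 and a local difference of 4.13. The systemic arrays came close to the local ones without reaching them. The gene next to it, AT3G48640, is also a member, with 3.97 and 4.26 in control, 6.05 and 6.78 in local and 6.35 and 5.42 in systemic leaves, where local and systemic arrays overlapped.

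AT2G27080 encodes a protein of the NDR1/HIN1-like family, whose best known members act in defence at the plasma membrane. Its levels were 6.25 and 6.26 in control, 11.27 and 11.33 in local and 9.88 and 9.13 in systemic leaves. AT3G04640, which encodes a glycine-rich protein, stood at 6.98 and 6.60 in control, 11.58 and 11.63 in local and 10.51 and 9.36 in systemic leaves. In both genes every systemic array lay between the control and the local arrays. AT5G28630, another gene for a glycine-rich protein, was the named member closest to the systemic minimum, at 6.06 and 5.93, 8.35 and 8.38, and 7.72 and 7.27.

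Of the named members, 4 encode membrane transporters. AT5G52050 encodes DTX50, a MATE family transporter known to export abscisic acid from cells. It stood at 5.57 and 5.16 in control, 10.90 and 10.98 in local and 9.11 and 7.64 in systemic leaves, differences of 5.57 and 3.01. AT1G61890, another MATE family gene, stood at 7.76 and 7.87 in control, 10.90 and 11.05 in local and 9.74 and 9.38 in systemic leaves. In both MATE genes the local arrays agreed closely and the systemic arrays lay between them and control. GTR1, a transporter of glucosinolates that also carries jasmonates and gibberellin, stood at 8.89 and 8.92 in control, 10.97 and 11.07 in local and 10.68 and 10.35 in systemic leaves. SWEET13, a sucrose transporter of the phloem, stood at 5.57 and 5.63, 8.44 and 8.33, and 7.15 and 7.23. Its replicates lay close together in every group.

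Several named members encode proteins of the cell surface or wall. EXO, which encodes EXORDIUM, an extracellular protein that promotes growth in response to brassinosteroid, was at 9.20 and 8.52 in control, 12.62 and 12.36 in local and 11.84 and 10.65 in systemic leaves. AT2G41640, which encodes a glycosyltransferase of family 61, stood at 4.79 and 4.33 in control, 10.26 and 9.70 in local and 8.24 and 6.43 in systemic leaves. Its 2 systemic arrays were far apart but both above control. AT1G24140 encodes a matrix metalloproteinase and stood at 4.78 and 5.15, 7.91 and 7.91, and 7.09 and 6.31. AT5G19240, which encodes a glycoprotein anchored to the membrane, stood at 9.86 and 10.09 in control, 12.41 and 12.50 in local and 12.07 and 11.92 in systemic leaves. TET8, a tetraspanin found on extracellular vesicles of plant cells, stood at 10.24 and 10.23 in control, 12.46 and 12.43 in local and 12.00 and 11.47 in systemic leaves. AT5G35735, a gene for a protein with cytochrome b561 and DOMON domains, stood at 5.58 and 5.56, 9.49 and 9.71, and 7.96 and 7.30.

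Genes of secreted peptides and proteases included AT3G10930, which encodes the precursor of the IDA-like peptide IDL7. It stood at 4.65 and 4.28 in control, 9.82 and 9.53 in local and 8.07 and 6.58 in systemic leaves. The aspartyl protease genes AT3G59080 and AT4G16563 differed in how near the systemic leaf came to the wounded one. AT3G59080 stood at 7.07 and 6.78 in control, 8.95 and 9.07 in local and 8.72 and 8.42 in systemic leaves. AT4G16563 stood at 6.48 and 6.17, 9.88 and 9.49, and 8.12 and 7.71. AT5G05960, which encodes a lipid transfer type protein, is the named member whose systemic replicates disagreed by the most. It stood at 4.90 and 4.94 in control, 7.54 and 7.66 in local and 5.51 and 7.68 in systemic leaves.

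Immune receptor and signalling genes were represented by members with TIR domains, by a kinase and by calcium-related proteins. AT1G66090, of the TIR-NBS class of disease resistance genes, stood at 5.28 and 5.42 in control, 9.73 and 9.80 in local and 8.59 and 7.71 in systemic leaves. AT1G72920, another TIR domain gene, stood at 5.00 and 4.38, 8.97 and 8.62, and 7.41 and 6.55. AT5G58120, of the TIR-NBS-LRR class, stood at 7.13 and 6.68, 10.01 and 9.88, and 8.78 and 8.21. In all 3 the order of the groups was control, systemic, local, with no overlap. AT1G67470, which encodes a protein kinase, stood at 6.58 and 6.41, 9.20 and 9.25, and 8.24 and 7.96. The C2 domain is a module that binds membranes, often in response to calcium, and 2 named members encode C2 domain proteins. SRC2 stood at 10.65 and 10.73 in control, 12.96 and 13.14 in local and 12.34 and 12.15 in systemic leaves, and AT4G34150 at 9.29 and 9.53, 12.09 and 12.16, and 11.48 and 10.94.

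Some named members encode proteins that act in gene regulation, protein turnover or signalling. AT3G56880 encodes a VQ motif protein, a class that partners WRKY factors, and stood at 9.92 and 9.78 in control, 11.97 and 12.29 in local and 11.85 and 11.68 in systemic leaves. AT1G20823 encodes a RING ubiquitin ligase of the ATL family and stood at 7.05 and 7.20, 9.52 and 9.85, and 8.86 and 8.63. AT2G24600, an ankyrin repeat gene, stood at 8.11 and 8.13, 11.82 and 11.56, and 10.80 and 10.11. None of these had overlapping groups.

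The largest local difference of any named member was that of AT5G17350, a gene of unknown function, at 5.78, with levels of 5.21 and 4.96 in control and 10.83 and 10.90 in local leaves. Its systemic difference of 1.70 (7.35 and 6.21) was among the smaller ones. AT1G74450 and AT1G18740 encode related proteins of the DUF793 family. AT1G74450 stood at 8.41 and 8.14, 12.60 and 12.64, and 10.98 and 9.92, and AT1G18740 at 8.47 and 8.53, 12.02 and 12.21, and 10.72 and 10.12. AT1G23710 and AR781 share a domain of unknown function, DUF1645. AT1G23710 stood at 6.52 and 5.89, 9.83 and 9.50, and 8.87 and 8.08, and AR781 at 7.24 and 7.83, 10.53 and 10.78, and 9.31 and 8.97. The largest differences among such genes in systemic leaves were those of AT1G32920 (7.61 and 7.48, 12.37 and 11.95, 11.05 and 10.00) and AT5G16200 (5.40 and 5.30, 9.05 and 8.89, 8.16 and 7.89).

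Values are given more briefly for 10 further named members: AT1G19020, AT1G76600, AT3G57450, AT1G19380, AT2G39650, AT5G10695, AT2G42760, AT5G39785, AT2G25735 and AT5G11650. Their differences from control lay between 2.17 (AT5G11650) and 3.71 (AT1G76600) in local leaves. In systemic leaves they lay between 1.51 (AT5G11650) and 2.32 (AT1G19020). AT5G39785 has a second probe set, not a member, which differed from control by 0.66 in local and 0.26 in systemic leaves. Its local minus systemic difference was 0.40, against 1.12 for the member probe set.

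**Figure D2:**
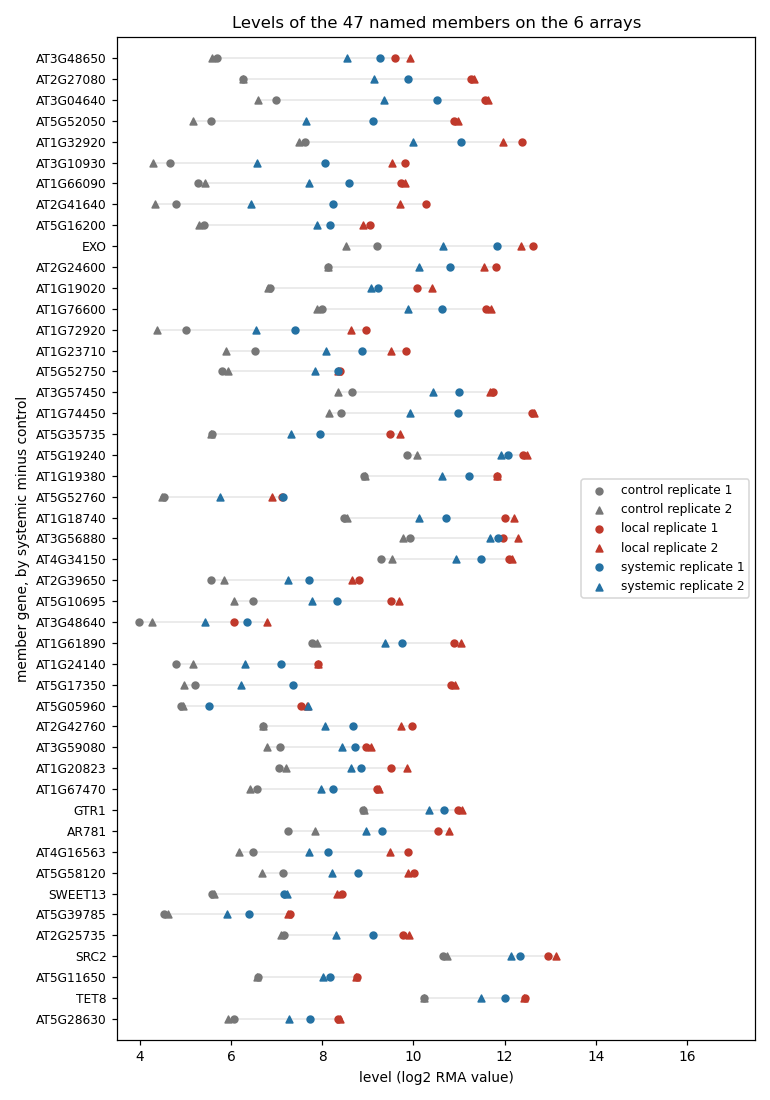
Log2 levels of the 47 named members (y axis, ordered by systemic minus control) on the 6 arrays, with circles for replicate 1 and triangles for replicate 2 of control (grey), systemic (blue) and local (red) leaves. Control arrays lie to the left of all others by the rule, and local and systemic arrays overlap in AT5G52750, AT5G52760, AT3G48640 and AT5G05960.

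The unnamed members include the largest differences of the whole group. The unnamed probe set with the largest systemic difference (4.46) stood at 5.05 and 4.94 in control, 11.92 and 12.14 in local and 10.11 and 8.79 in systemic leaves. The one with the largest local difference (7.67), whose control values lay under the lower quartile of their arrays, stood at 4.19 and 4.34, 11.90 and 11.98, and 8.54 and 6.41. The 65 unnamed members had median differences from control of 3.63 (local) and 2.22 (systemic), against 3.15 and 1.92 for the 47 named members. The 3 probe sets with several listed genes lay between 3.73 and 5.61 in local and between 2.22 and 2.43 in systemic leaves.

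The members just inside the conditions hardly differed from probe sets just outside. At the systemic minimum, AT5G28630, TET8 and an unnamed probe set were inside at 1.502, 1.502 and 1.51, and AT1G65870 and 2 unnamed probe sets were outside at 1.49, 1.496 and 1.492. At the local minimum, AT3G59080 and 2 unnamed probe sets were inside at 2.08, 2.07 and 2.09, and AT5G37540, AT1G63750 and an unnamed probe set were outside at 1.97, 1.86 and 1.92.

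The wounded and the distant leaf were then compared with each other. The rule places no condition of its own on this difference, although its minimum for the local leaf lies 0.5 above that for the systemic leaf. The arrays compared also chose the members, so these tests are not independent of that choice. The fit shares 1 spread over the 3 groups, while the members' median SD was 0.51 in systemic and 0.09 in local leaves. Its SE for the difference between the leaves can therefore be too small for members. All 115 members had a higher mean in local than in systemic leaves, by 0.26 to 4.46 (median 1.37, against -0.03 over all probe sets). Of these, 95 were called higher by limma at an adjusted p under 0.05 over all probe sets, 82.6% of the members against 4.77% of all probe sets, and none was called lower (4.93% of all probe sets), every difference being above 0. Among the 117 probe sets with a local difference of at least 2 that missed the systemic minimum, 115 (98.3%) were called higher. Their choice puts each of their differences between the leaves above 0.5, so this share follows from it and cannot be set against the members' share. The difference was at least 1 in 81 members, at least 2 in 25 and at least 3 in 7. Both local arrays lay above both systemic arrays in 109 members, against 22.3% of all probe sets. Without local replicate 1 the count of calls was 45, and it lay between 45 and 104 when each array was left out in turn.

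Among the 47 named members, 40 were called higher in the wounded leaf. The largest of these differences was that of AT5G17350, at 4.08 ± 0.31 (SE, adjusted p = 0.00045 by limma). AT2G41640, AT5G52050, AT3G10930, AT1G74450 and AT5G35735 followed, with 2.65 ± 0.50, 2.56 ± 0.39, 2.35 ± 0.40, 2.17 ± 0.29 and 1.97 ± 0.19 (adjusted p between 0.0013 and 0.017). The distant leaf therefore held between 3.92-fold and 17.0-fold less of these 6 transcripts than the wounded leaf. Of the transporters, AT1G61890 was higher by 1.41 ± 0.13 (adjusted p = 0.0011), SWEET13 by 1.20 ± 0.09 (adjusted p = 0.00053) and GTR1 by 0.51 ± 0.12 (adjusted p = 0.040).

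Calls with smaller differences included AT5G19240 at 0.46 ± 0.11 (adjusted p = 0.042), AT5G11650, an alpha/beta hydrolase gene, at 0.66 ± 0.09 (adjusted p = 0.0057), TET8 at 0.71 ± 0.16 (adjusted p = 0.031), SRC2 at 0.80 ± 0.11 (adjusted p = 0.0052) and AT3G48650 at 0.85 ± 0.22 (adjusted p = 0.048). Of the TIR domain genes, AT1G72920, AT1G66090 and AT5G58120 were higher by 1.81 ± 0.29, 1.62 ± 0.24 and 1.45 ± 0.20 (adjusted p = 0.0094, 0.0068 and 0.0055). The C2 domain gene AT4G34150 was higher by 0.92 ± 0.17 (adjusted p = 0.017).

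In 7 named members the difference between the leaves did not pass the threshold. The smallest was that of AT5G52750, which encodes a protein with a heavy metal-associated domain, at 0.26 with a 95% interval of -0.10 to 0.63 (adjusted p = 0.39 by limma). It stood at 5.80 and 5.92 in control, 8.39 and 8.34 in local and 8.35 and 7.85 in systemic leaves, where the arrays of the 2 leaves overlapped. AT3G56880 differed by 0.36 (interval 0.06 to 0.67, adjusted p = 0.14) and AT3G59080 by 0.44 (interval 0.12 to 0.76, adjusted p = 0.098), with all local above all systemic arrays. AT3G48640, AT5G52760, AT5G05960 and EXO had wider intervals, of -0.21 to 1.27, -0.29 to 1.40, -0.28 to 2.29 and 0.41 to 2.08. EXO, at 1.25 ± 0.36 (adjusted p = 0.073), passed with the replicate number as a block (adjusted p = 0.0093) and with trended moderation of the variance (adjusted p = 0.048). Without systemic replicate 1 its difference was 1.84, in a fit that no longer holds the spread between the systemic arrays.

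Of the 40 named calls, 17 held under all 13 alternatives to the fit: AT2G27080, AT5G16200, AT1G19020, AT1G74450, AT5G35735, AT1G18740, AT2G39650, AT5G10695, AT1G61890, AT5G17350, AT2G42760, AT1G67470, AR781, AT4G16563, SWEET13, AT5G39785 and SRC2. The other 23 were lost under at least 1. Leaving out local replicate 1 lost 22 calls, local replicate 2 lost 12, systemic replicate 2 lost 9 and systemic replicate 1 lost 1. Robust variance lost 7. AT5G52050, AT2G41640 and AT3G10930 were lost without local replicate 1 (adjusted p = 0.059, 0.13 and 0.097 by limma) and with robust variance (adjusted p = 0.059, 0.13 and 0.081). TET8, AT5G19240, AT4G34150, AT1G72920, AT1G66090, AT5G58120 and AT5G11650 were also lost without local replicate 1. The first 3 of these were lost without local replicate 2 or systemic replicate 2 too, and AT5G19240 in addition without systemic replicate 1. GTR1 and AT3G48650 were lost with only the 4 arrays compared (adjusted p = 0.051 and 0.062 by limma). They were also lost without either local array or systemic replicate 2, and AT3G48650 with robust variance.

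**Figure D3:**
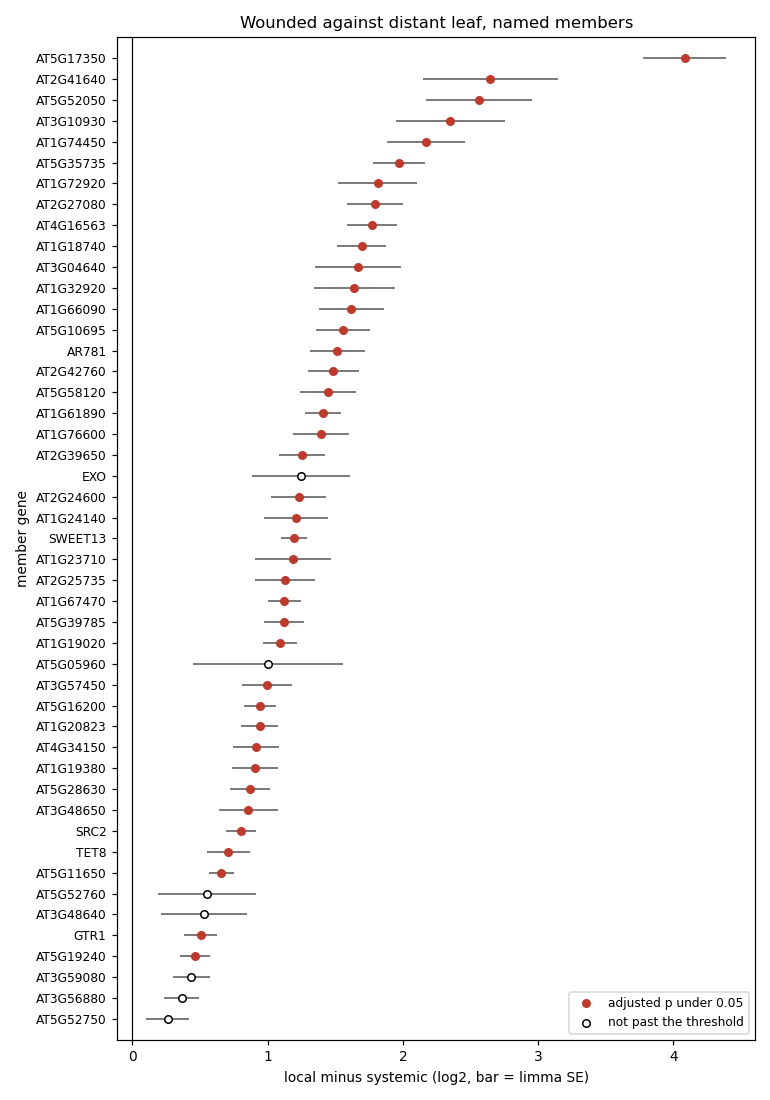
Local minus systemic difference (x axis, log2; bars are limma standard errors) of the 47 named members (y axis). All 47 lie above 0, from 0.26 for AT5G52750 to 4.08 for AT5G17350; filled points are the 40 called at an adjusted p under 0.05.

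The 2 systemic pools differed in strength. Systemic replicate 1 lay above replicate 2 in 112 of 115 members (97.4%, against 47.1% of all probe sets), by a median of 0.71 (against -0.01). The same held for most of the 117 probe sets whose local difference was at least 2 but missed the systemic minimum, of which 102 were higher in systemic replicate 1, by a median of 0.40. The local replicates differed by a median of -0.05 and the control replicates by 0.07. The median SD between systemic replicates was accordingly 0.51 for the members, against 0.08 over all probe sets, while the members' median SD was 0.09 in local and 0.13 in control leaves. Taken alone, systemic replicate 1 lay above the control mean by a median of 2.49 and by at least 1.5 in 114 members, and replicate 2 by a median of 1.75 and by at least 1.5 in 78.

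The exceptions were few. SWEET13 was nearly equal in both systemic pools (7.15 and 7.23), as was an unnamed probe set (6.83 and 6.84). AT5G05960 was the only member far higher in replicate 2, by 2.18 on the log2 scale, and the sign of its difference between the leaves depended on the pool: 2.09 without systemic replicate 2 and -0.083 without systemic replicate 1. In AT5G52760, a neighbour and relative of AT5G52750, replicate 1 (7.15) was at the level of the local arrays (7.11 and 6.90) and replicate 2 (5.76) was far below. By the same rule with only 1 systemic array, 148 probe sets would be members on replicate 1, 114 of them among the 115, and 79 on replicate 2, 78 of them among the 115.

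**Figure D4:**
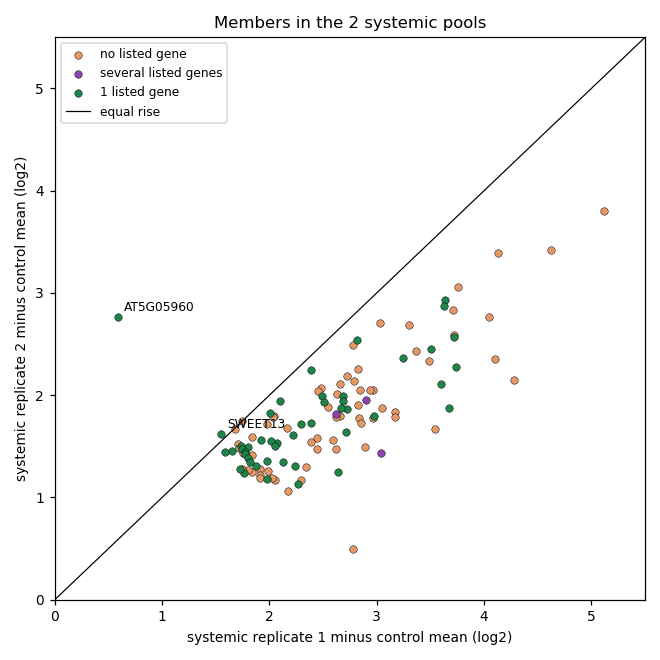
Each point is 1 of the 115 members, with its level in systemic replicate 1 minus the control mean on the x axis and in systemic replicate 2 minus the control mean on the y axis (log2); the line marks equal rises. All but 3 points lie below the line, and AT5G05960 stands far above it at 0.59 and 2.76.

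Genes related to or next to the members were examined too; these genes and families were chosen after the members' values were seen. TET8 belongs to the tetraspanins, membrane proteins that organise plasma membrane domains, and 14 other genes with the symbol TET had a probe set named here. TET3 rose by 0.74 ± 0.10 in local leaves (adjusted p = 0.0012 by limma) and TET7 fell by 0.81 ± 0.14 (adjusted p = 0.0047). No other of the 14 was called in local leaves, and none in systemic leaves by limma, where 1 had an unadjusted p under 0.05 and their differences lay between -0.28 and 0.38, against 1.502 for TET8. Their median difference in local leaves was 0.09, beside -0.04 over all probe sets. For comparison, limma called 9.92% of all probe sets higher and 13.7% lower in local leaves, and 4.73% and 3.67% in systemic leaves.

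SWEET13 belongs to the SWEET family of sugar transporters, of which 15 other genes had a probe set named here. In local leaves SWEET11 and SWEET2 rose by 0.79 ± 0.16 and 0.46 ± 0.09 (adjusted p = 0.011 and 0.0077), and SWEET15, a gene known from senescing leaves, fell by 1.11 ± 0.34 (adjusted p = 0.0495). The call of SWEET11 was lost without local replicate 2 (adjusted p = 0.059), and that of SWEET15 under 7 alternatives, with adjusted p between 0.00018 and 0.18 over all of them. Over all probe sets, 9.92% were called higher and 13.7% lower in local leaves. In systemic leaves limma called none of the 15 (5 had an unadjusted p under 0.05), with differences between -0.90 and 0.40, against 1.59 for SWEET13. The gene next to SWEET13 is SWEET10, which differed by -0.25 ± 0.10 in local and -0.18 ± 0.10 in systemic leaves (adjusted p = 0.13 and 0.38).

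**Figure D5:**
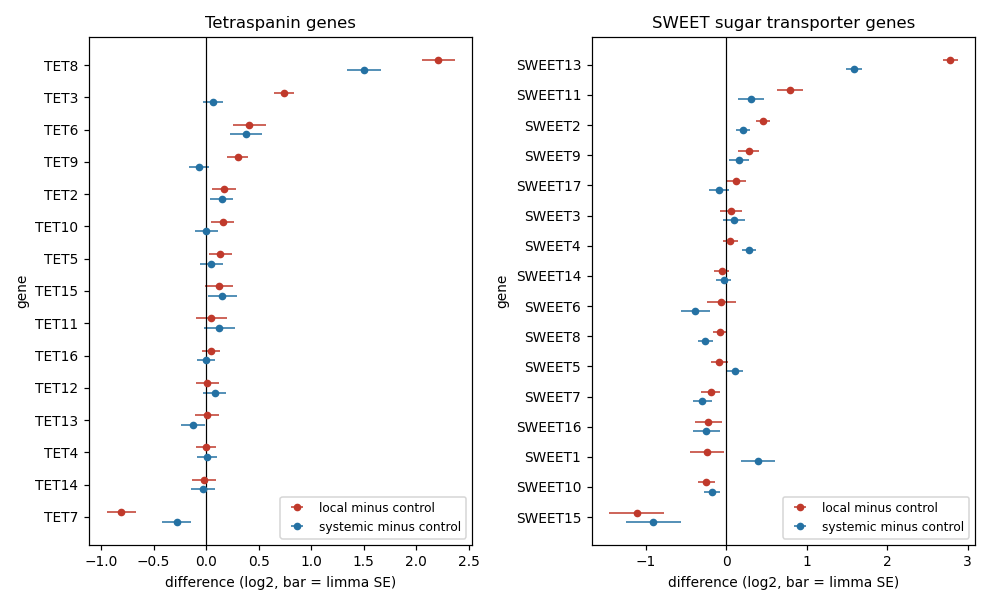
Local (red) and systemic (blue) minus control differences in log2 units, with limma standard errors, of the tetraspanin genes (left) and the SWEET sugar transporter genes (right) that have a probe set named here. TET8 (2.21 and 1.502) and SWEET13 (2.78 and 1.59) stand apart because the rule chose them, while the largest other rises are 0.74 for TET3 and 0.79 for SWEET11.

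Neighbouring genes were found through the order of genes in the TAIR10.1 table. Among the 47 named members there were 2 adjacent pairs, AT3G48640 with AT3G48650 and AT5G52750 with AT5G52760. The genes on either side of the second pair, AT5G52740 and AT5G52770, differed from control by -0.07 ± 0.13 and -0.09 ± 0.09 in local leaves (adjusted p = 0.79 and 0.54). In the order of protein-coding genes, 44 neighbours of 33 members were no members themselves and had a probe set of their own. Of these, 3 were called higher (6.82%) and 6 lower in local leaves, where 9.92% of all probe sets were called higher and 13.7% lower. In systemic leaves 2 were higher (4.55%, against 4.73%) and none lower (against 3.67%), with 6 of the 44 at an unadjusted p under 0.05. Their median differences were -0.04 and 0.03.

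The strongest neighbour was AT1G74440, next to AT1G74450, which rose by 1.46 ± 0.16 in local (adjusted p = 0.00052 by limma) and by 0.91 ± 0.16 in systemic leaves (adjusted p = 0.013, or 0.064 without control replicate 1). AGL65, a MADS-box gene next to AT1G18740, rose by 0.995 ± 0.11 in local leaves (0.30 ± 0.11 in systemic leaves, adjusted p = 0.15) and was higher in local than in systemic leaves by 0.69 ± 0.11 (adjusted p = 0.0087, lost without local replicate 1 or systemic replicate 2). AT1G66080, next to AT1G66090, rose by 0.87 ± 0.14 in local leaves (adjusted p = 0.0040). AT1G61900, next to AT1G61890, was called in systemic leaves at 0.38 ± 0.09 (adjusted p = 0.043), a call lost under 8 alternatives.

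Lists of genes of the early wound response held 115 genes, of which 8 had a probe set named here. The lists were chosen with earlier results of these data known, so their counts of calls are a description and no test. Among these 8 only EXO is a member. The list gene AP2C1 (AT2G30020) shares a member probe set with other genes, which differed from control by 5.47 in local and 2.24 in systemic leaves. List genes with no probe set named here were not looked up and may be among the unnamed members. In local leaves 6 of the 8 were called higher and none lower, in systemic leaves 3 and none, beside 9.92% and 4.73% of all probe sets called higher. The counts include EXO, which the rule chose, and SAG101, which is listed with touch and cell wall genes although it is known from immunity. The AP2/ERF factor genes AT1G19210 and AT1G22810 are no members. AT1G19210 stood at 4.56 and 4.49 in control, 9.96 and 10.33 in local and 5.52 and 4.61 in systemic leaves, and AT1G22810 at 4.002 and 4.19, 6.40 and 7.14, and 4.46 and 4.80. Neither was called in systemic leaves (adjusted p = 0.29 and 0.22), and the difference between the leaves was 5.08 ± 0.26 and 2.14 ± 0.23 (adjusted p = 7.6e-05 and 0.0018). OPCL1, a CoA ligase of jasmonate synthesis, stood just outside the conditions, at 6.81 and 7.35, 9.87 and 9.88, and 8.81 and 8.20, a systemic difference of 1.42 ± 0.22 (adjusted p = 0.0081 by limma).

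The list gene ATPMEPCRB encodes an enzyme that modifies pectin. It stood at 5.93 and 5.54 in control, 6.29 and 7.21 in local and 9.18 and 8.98 in systemic leaves, and was lower in local than in systemic leaves by 2.33 ± 0.27 on the log2 scale (adjusted p = 0.0025 by limma). SAG101, a lipase-like protein of immune signalling, differed by 0.43 ± 0.10 in local (adjusted p = 0.017, lost under 3 alternatives) and 0.35 ± 0.10 in systemic leaves (adjusted p = 0.083). The zinc finger gene ZAT5 and the kinase gene BIK1 were not called in either leaf, with local differences of -0.18 ± 0.18 and 0.12 ± 0.09 (adjusted p = 0.54 and 0.40).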

How the data were processed

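Total RNA of leaf pools (6 µg each) was labelled by a one-cycle 3' amplification and hybridised to Affymetrix arrays, per the labels' protocols. The deposited values are log2 levels, 1 per probe set. The authors used RMA (background correction, equal distributions over arrays, summary of probes) and Affymetrix Expression Console, as the submitters' processing notes name them. A shift of all transcripts would not be seen, and dim differences are compressed. No depth applies to arrays. The number of arrays limits the precision, and there are no detection calls.

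Of 22810 probe sets, 64 controls were left out and 22746 were used without a filter. Genes were named from the platform annotation (13513 probe sets with 1 gene, 503 with several, 8730 none listed), updated through the TAIR10.1 gene table by Entrez number (13436) or locus (48), with 29 keeping the platform's name. Roles in the text are background knowledge.

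A model of group means over all 6 arrays was fitted in R 4.3.3 with limma 3.58.1. It had 3 residual and 4.85 prior degrees of freedom. Tests were two-sided with Benjamini-Hochberg adjustment over all probe sets, threshold 0.05. The fit was also run on simulated data with 1 spread per probe set, equal in all 3 groups. The members' spread was unequal between groups, so that run does not bear on their difference between the leaves. The replicate number was not used in the fit. Deviations of same-numbered arrays correlated at 0.14, 0.02 and 0.20, and the labels give the numbers no shared batch. Members, lists and tests were chosen with earlier results of these data known. By rule, values per array were given for the members with 1 listed gene that were among the 10 largest in systemic or local minus control or the 6 largest or smallest in local minus systemic, that were in a list, or whose description named a factor, kinase, phosphatase, receptor, transporter or wall enzyme. Further members, the families and the gene neighbours were chosen after values were seen. Alternatives were a replicate block, median centring, cyclic loess, leaving out probe sets below the 25th percentile, trended and robust variance, the 4 arrays compared, and each array left out. Promoter and protein sequences were planned but not used here.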

Additional observations from a re-analysis of the deposited data

Results flagged for a closer look

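The response of the members differed between the wounded and the distant leaf. The difference itself was tested with limma, and 95 of the 115 members were called higher in local than in systemic leaves at an adjusted p under 0.05, with all 115 differences in that direction. Over all probe sets 4.77% were called higher. The rule asked for a difference from control of at least 2 in local but 1.5 in systemic leaves, which favours this direction. The same arrays chose the members, so the calls are not independent of that choice. Of the 117 probe sets with a local difference of at least 2 that missed the systemic minimum, 98.3% were called higher, a share that follows from how they were chosen. What sets the smaller rise in distant leaves was not tested.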

How the results depend on the processing

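The count of members called higher in local than in systemic leaves was 95, lay between 78 (robust variance) and 100 (trended variance) under the settings that keep all arrays, and between 45 and 104 with 1 array left out. No member was called lower under any of them. With the replicate number as a block it was 98, and among the named members the block changed only the call of EXO (adjusted p = 0.0093). Across the array, local exceeded systemic leaves in 1084 probe sets and fell short in 1122 (358 to 1175 and 200 to 1154 with 1 array left out), local against control gave 2257 and 3117 (1437 to 2147 and 1386 to 2893), and systemic against control 1076 and 835 (537 to 935 and 250 to 732). With both minimum differences raised or lowered by 0.5, the rule gave 61 or 219 members, 47 with only probe sets of 1 gene, and 79 to 148 with 1 array left out. AT5G52760 and AT5G05960 turned sign between the leaves, to -0.14 without systemic replicate 2 and -0.083 without systemic replicate 1, against 1.24 and 2.09 without the other systemic array. A left-out array leaves its group with 1, assumed to vary like the others. Leaving out a systemic array removes the spread between the systemic pools from the fit. The cause of these shifts was not tested. Differences near or below the lower quartile of an array are limited by signal over background.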
